A study of Mus musculus with 6 samples.

Results

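A set of 9 genes that make, load or take up GABA and the monoamines was followed in the esophageal epithelium of p63 mutant mouse embryos. They are Gad1, Gad2, Th, Tph1, Ddc, Gch1, Slc6a4, Slc18a1 and Slc18a2, found by symbol as 9 of the 23284 symbols in the count table. The genes were chosen by their function and selected on the fold changes of this same comparison, so their levels and fold changes are a description, with no p-value. RNA was sequenced from epithelium isolated from the esophagus at stage E12.5. The p63KO group held 3 samples homozygous for Trp63-CreERT2, a Cre recombinase allele inserted at the p63 gene. The control group held 3 littermates, titled WT, and no further genotype was given for them. The labels do not say how many embryos went into a sample, so errors and p-values cover only the spread among these libraries, which may be technical.

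GABA is made from glutamate by the glutamate decarboxylases that Gad1 and Gad2 encode. Monoamine synthesis starts with a hydroxylase, which is tyrosine hydroxylase (Th) for the catecholamines and tryptophan hydroxylase (Tph1 outside the brain) for serotonin, and both need tetrahydrobiopterin, whose synthesis begins with the enzyme of Gch1. Aromatic L-amino acid decarboxylase (Ddc) then acts in both branches, the vesicular transporters VMAT1 (Slc18a1) and VMAT2 (Slc18a2) load the amine into granules or vesicles, and the transporter SERT (Slc6a4) takes serotonin back into the cell. In gut and airway epithelium some of these genes, Tph1 among them, are known from enteroendocrine and neuroendocrine cells.

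The control libraries held 16948971 to 20093838 counts and the p63KO libraries 13335328 to 16506401, so a count of 3 was worth 0.153 to 0.223 CPM, the count divided by the TMM-scaled size of its library. Trp63, the targeted gene, was at 602.9 ± 63.9 CPM in the controls against 71.4 ± 8.03 CPM in p63KO (SD, n = 3 per group), and each library matched its label. The summed level of 8 esophageal epithelium markers, Trp63 among them, was 4688 to 5351 CPM in the controls and 3248 to 3392 CPM in p63KO. Of the 8, Krt8 and Krt18 rose and Krt5, Krt15, Cdh1 and Trp63 fell, while Epcam, an adhesion marker of epithelium, was not called (0.15 on the log2 scale, SE 0.05, edgeR adjusted p = 0.0569). Over 13849 genes tested with the edgeR quasi-likelihood test, 29.6% were called at an adjusted p under 0.05, 15.3% higher and 14.3% lower in p63KO. Of the 9 genes, 6 were called higher (5 with robust dispersions, which left out Ddc), 1 lower, 1 was not called and 1 was not tested. Gad1 and Tph1 passed the filter on low counts only through p63KO and Th only through control, so nothing is read from that tally. The groups did not overlap for the 7 called genes. Over all tested genes 44.1% did not overlap, 21.8% with p63KO above control and 22.2% with it below.

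**Figure D1:**
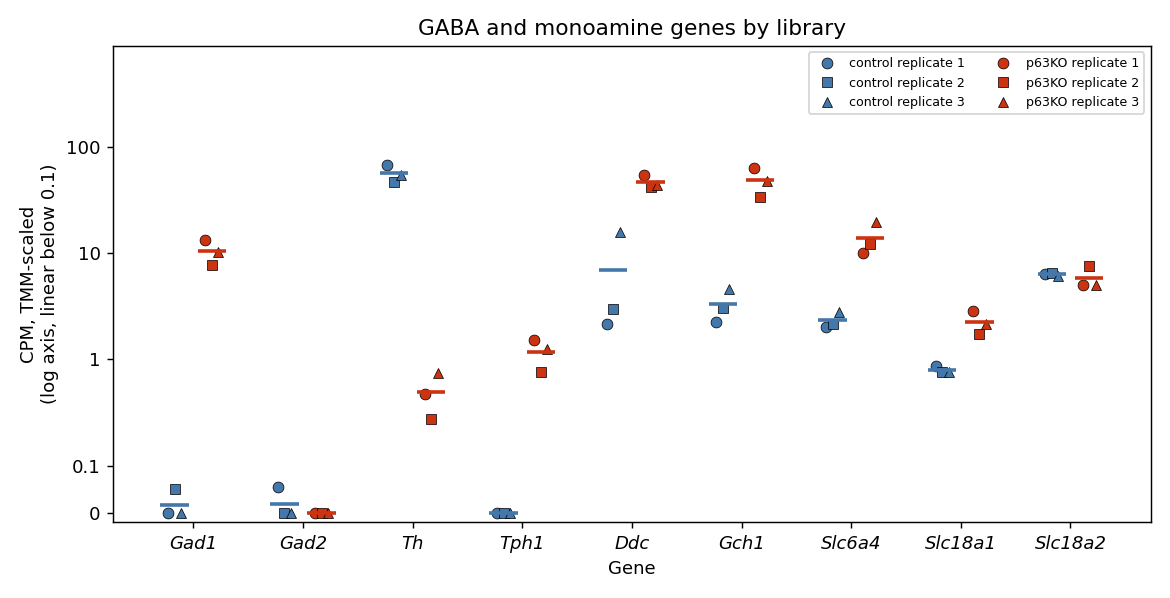
Level of each of the 9 genes in every library, as TMM-scaled CPM on a log axis that is linear below 0.1; points are libraries and horizontal lines are means of 3. Th lies between 47.3 and 68.4 CPM in control and below 1 CPM in p63KO, while Gad1, Tph1, Ddc, Gch1, Slc6a4 and Slc18a1 lie higher in all 3 p63KO libraries.

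Per library, in the order of the replicate numbers, Th had 1273, 927 and 934 counts in the controls and 8, 4 and 10 counts in p63KO. Every control library was far above every p63KO library. The level was 56.9 ± 10.6 CPM in the controls against 0.50 ± 0.23 CPM in p63KO (SD, n = 3 per group), a log2 fold change of -6.83 (SE 0.25), or 114.1-fold lower. With each library left out in turn the log2 fold change lay between -7.19 and -6.54. In these bulk samples, fewer cells with Th RNA and less Th RNA per cell cannot be told apart.

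The genes on either side of Th were read for comparison. Ins2, the insulin gene next to Th, had no count in any library. Ascl2, the neighbour on the other side and a basic helix-loop-helix factor, had 12, 17 and 14 counts in control and 2, 1 and 0 in p63KO, and fell by 3.41 on the log2 scale (SE 0.69, edgeR adjusted p = 0.00495).

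The genes of the later steps of catecholamine synthesis, and those of the noradrenaline and dopamine transporters, were near 0 in both groups. Dbh, the dopamine beta-hydroxylase that makes noradrenaline, had 6, 3 and 1 counts in control and 2, 1 and 0 in p63KO. Pnmt, the enzyme that makes adrenaline, had 8 counts in control and 6 in p63KO. The noradrenaline transporter gene Slc6a2 had 7 and 5 counts, and the dopamine transporter gene Slc6a3 had 4 and 7. None of these 4 genes had enough counts to test. Slc29a4, a low-affinity monoamine transporter gene, was well counted, with 920, 884 and 695 counts in control and 1067, 751 and 650 in p63KO. Its groups overlapped, at 45.2 ± 4.24 and 54.4 ± 7.64 CPM (SD, n = 3 per group), and it was at 0.27 on the log2 scale (SE 0.11, edgeR adjusted p = 0.103). Over 7 noradrenergic and chromaffin markers, which include Dbh, Slc6a2 and Pnmt, the summed level was 5.11 to 11.7 CPM in the controls. It was 4.16 to 10.4 CPM in p63KO, so the groups overlapped. Hand2, which also marks mesenchyme, led this sum in control replicate 1 with 7.25 CPM. Of the 3 tested markers, Gata3, a zinc finger factor, rose from 52 counts to 112 (1.39 on the log2 scale, SE 0.30, edgeR adjusted p = 0.0076).

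Ddc, the decarboxylase that follows Th, was lower in control and higher in p63KO. It had 40, 59 and 271 counts in control (2.15, 3.01 and 16.0 CPM) and 929, 614 and 592 counts in p63KO (54.8, 42.5 and 44.0 CPM). The groups did not overlap, but control replicate 3 stood above the other control libraries. The log2 fold change was 2.77 (SE 0.58) with all libraries and 4.18 without control replicate 3. Control replicate 3 also held the most blood RNA, with a summed level of 7 blood genes of 38.6 CPM, where control replicates 1 and 2 were at 2.69 and 6.23 CPM. The part of that RNA in the Ddc value was not tested.

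Gch1, which starts the synthesis of the hydroxylase cofactor, was higher in p63KO, as Ddc was, where Th was lower. It had 42, 60 and 79 counts in control and 1079, 493 and 654 in p63KO, or 3.32 ± 1.22 against 48.8 ± 14.8 CPM (SD, n = 3 per group). All p63KO libraries lay above all control libraries, with p63KO replicate 1 the highest. The log2 fold change was 3.88 (SE 0.29), and it lay between 3.64 and 4.19 with each library left out.

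Tph1, the first enzyme of serotonin synthesis outside the brain, had no count in control and 26, 11 and 17 counts in p63KO. Taking 3 counts over the control group as a floor, it was 22.1-fold higher in p63KO, a ratio that leaves out counting error and the spread among libraries. At 1.19 ± 0.39 CPM in p63KO (SD, n = 3), it remained a low-abundance transcript. Tph2, the brain form of the enzyme, had 1 count in control and 3 in p63KO. Of the hydroxylases, Th RNA was counted mostly in control and Tph1 RNA in p63KO alone.

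Of the glutamate decarboxylase genes, Gad1 alone was present beyond single counts. Gad1 had 0, 1 and 0 counts in control and 227, 112 and 138 in p63KO, or 13.4, 7.76 and 10.2 CPM in the p63KO libraries. The depth-scaled ratio of 1 count to 477 was 586.9 (95% exact interval 104.8 to 23229, counting error only). Gad2 had 1 count in control, 0 in p63KO and no test, and its ratio could be as high as 48.0 within the interval. Sp5, a Wnt-responsive factor gene next to Gad1, rose from 14, 23 and 11 to 226, 122 and 176 counts (log2 fold change 3.74, SE 0.30, edgeR adjusted p = 1.67e-05). Gorasp2, a Golgi stacking gene on the other side, was not called (0.12, SE 0.06, edgeR adjusted p = 0.13).

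Per length of exon, the order of the genes differed between the groups. In control Th led with 24.1 ± 4.50 CPM per kilobase, ahead of Ddc with 3.36 ± 3.70, Slc18a2 with 1.68 ± 0.04, Gch1 with 1.20 ± 0.44 and Slc6a4 with 0.82 ± 0.15. Slc18a1 followed with 0.25 ± 0.02, and Gad1, Gad2 and Tph1 were at or near 0. Ddc, Slc18a2 and Gch1 did not differ beyond their spread, and only control replicate 3, at 7.62 CPM per kilobase, put Ddc above Slc18a2. Gch1 and Slc6a4 also overlapped. In p63KO Ddc led with 22.5 ± 3.21 CPM per kilobase, followed by Gch1 with 17.6 ± 5.32, whose spread overlaps it, then Slc6a4 with 4.88 ± 1.77, Gad1 with 2.21 ± 0.60, Slc18a2 with 1.55 ± 0.38, which overlaps Gad1, and Slc18a1 with 0.70 ± 0.17. Th, at 0.21 ± 0.10 CPM per kilobase, and Tph1, at 0.25 ± 0.08, did not differ beyond their spread and lay above Gad2 alone.

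**Figure D2:**
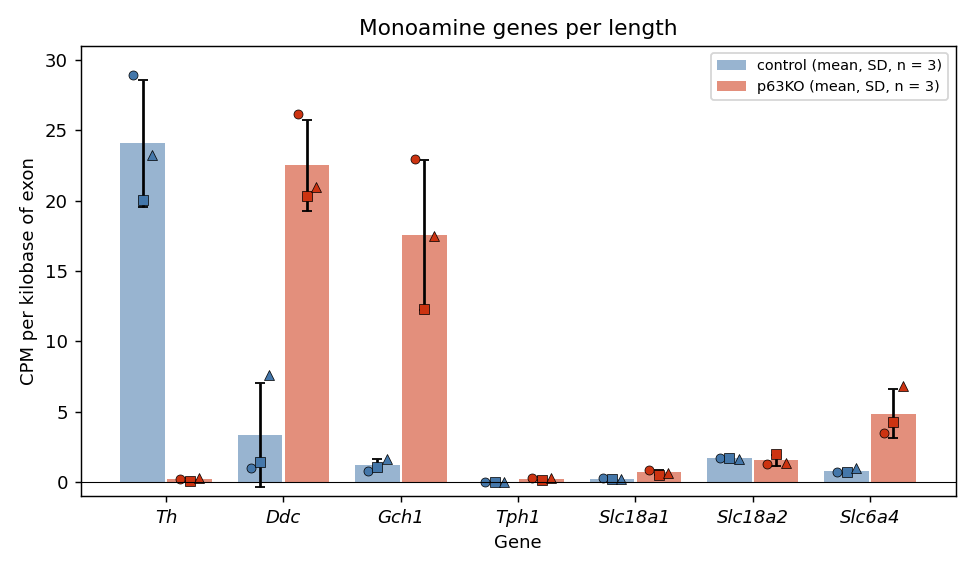
CPM per kilobase of exon for the 7 monoamine genes; bars are means, error bars SD and points the 3 libraries of each group, with circles, squares and triangles for replicates 1, 2 and 3. Th leads in control at 24.1 and Ddc and Gch1 lead in p63KO at 22.5 and 17.6.

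Within single libraries, Th RNA lay above Ddc RNA per kilobase in every control library and below it in every p63KO library. Ddc also acts in the serotonin branch, and bulk RNA does not show whether the same cells held both. The ratio of Th to Ddc per kilobase was 28.2, 13.9 and 3.05 in the controls, in replicate order, where the p63KO libraries gave 0.0076, 0.0058 and 0.015. The lowest control ratio belonged to the library with the high Ddc value. The ratio of Gch1 to Ddc was 0.79, 0.77 and 0.22 in control and 0.88, 0.61 and 0.83 in p63KO, so the groups overlapped and control replicate 3 was the lowest.

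The RefSeq windows upstream of Th, Gad1, Gch1 and Ddc (build GRCm38.p6) are shown because these genes carry the contrast, Th against the synthesis genes that were higher. Each holds the 250 bases before an annotated start, 5′ to 3′ on the gene's strand, and 2 starts are annotated for Ddc. Capitals mark 3 motifs searched on both strands: the E-box CANNTG, the cyclic AMP response element TGACGTCA and the p53-family decamer, the unit that p53, p63 and p73 bind in pairs. No match overlapped another.
Th, chr7:142899996-142900245, minus strand: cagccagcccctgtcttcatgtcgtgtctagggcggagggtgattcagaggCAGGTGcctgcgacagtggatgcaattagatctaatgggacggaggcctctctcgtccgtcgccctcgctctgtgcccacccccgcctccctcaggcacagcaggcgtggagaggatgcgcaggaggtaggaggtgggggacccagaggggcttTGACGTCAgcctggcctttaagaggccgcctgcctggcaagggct
Gad1, chr2:70561879-70562128, plus strand: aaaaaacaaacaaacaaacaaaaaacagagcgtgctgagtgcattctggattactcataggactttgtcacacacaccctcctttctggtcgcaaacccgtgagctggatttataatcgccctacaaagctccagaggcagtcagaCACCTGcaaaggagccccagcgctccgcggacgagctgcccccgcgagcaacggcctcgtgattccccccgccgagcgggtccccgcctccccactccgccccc
Gch1, chr14:47189414-47189663, minus strand: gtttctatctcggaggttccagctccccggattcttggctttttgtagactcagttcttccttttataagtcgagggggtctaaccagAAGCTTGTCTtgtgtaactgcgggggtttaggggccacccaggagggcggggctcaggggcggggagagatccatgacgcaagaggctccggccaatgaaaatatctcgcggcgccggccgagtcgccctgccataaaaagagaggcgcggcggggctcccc
Ddc, first start, chr11:11898145-11898394, minus strand: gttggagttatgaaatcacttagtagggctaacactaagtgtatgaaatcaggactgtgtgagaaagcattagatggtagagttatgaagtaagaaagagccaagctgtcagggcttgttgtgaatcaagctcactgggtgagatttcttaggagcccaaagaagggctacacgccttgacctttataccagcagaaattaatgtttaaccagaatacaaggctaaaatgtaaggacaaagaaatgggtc
Ddc, second start, chr11:11890409-11890658, minus strand: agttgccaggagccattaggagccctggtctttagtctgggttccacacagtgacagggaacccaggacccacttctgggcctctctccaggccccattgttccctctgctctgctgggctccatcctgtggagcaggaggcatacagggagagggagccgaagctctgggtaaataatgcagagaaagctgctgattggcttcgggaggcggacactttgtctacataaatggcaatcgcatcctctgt

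The Th window held TGACGTCA, starting at position -45 from the annotated start, a sequence found in 1.55% of 32851 RefSeq windows of that length. It also held 1 E-box at -199, and the Gad1 window held 1 at -104, where 66.2% of all windows hold at least 1. The p53-family decamer, found in 7.13% of windows, was matched in Gch1 at -162 and not in Th, Gad1 or either Ddc window. Neither Ddc window held any of the 3 motifs. Gene counts do not show which Ddc start was used.

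Slc6a4, the serotonin transporter gene, was higher in p63KO. It had 38, 42 and 48 counts in control and 169, 176 and 264 in p63KO, or 2.34 ± 0.43 against 13.9 ± 5.04 CPM (SD, n = 3 per group). The groups did not overlap and p63KO replicate 3 was the highest. The log2 fold change was 2.57 (SE 0.28), a 5.94-fold higher level. Unlike Gad1 and Tph1, Slc6a4 was counted in every control library.

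Of the vesicular transporter genes, Slc18a1 was higher in p63KO and Slc18a2 was not called, and the difference between them was not tested. Slc18a1 (VMAT1), the form of endocrine cells, had 16, 15 and 13 counts in control and 48, 25 and 29 in p63KO, with no overlap in CPM and a log2 fold change of 1.49 (SE 0.32). In RefSeq its span overlaps that of Atp6v1b2, a proton pump subunit gene that reached 130.8 ± 7.52 CPM in the p63KO libraries and was not called (0.18, SE 0.06, edgeR adjusted p = 0.0614). The GENCODE models gave no exonic base shared by that pair, while Slc18a2 shared 99 exonic bases with Gm29261 on the opposite strand. The strand setting was not given, and the part of Gm29261 reads in the Slc18a2 counts was not tested. Slc18a2 (VMAT2), the form of neurons, mast cells and platelets, had 120, 127 and 105 counts in control and 85, 109 and 68 in p63KO. The Slc18a2 groups overlapped, at 6.37 ± 0.16 and 5.87 ± 1.45 CPM, with a log2 fold change of -0.12 (SE 0.21), and it was not called. The ratio of Slc18a1 to Slc18a2 per kilobase was 0.14 to 0.16 in control and 0.67, 0.27 and 0.50 in p63KO replicates 1, 2 and 3, so VMAT2 RNA remained the more abundant in all 6 libraries.

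**Figure D3:**
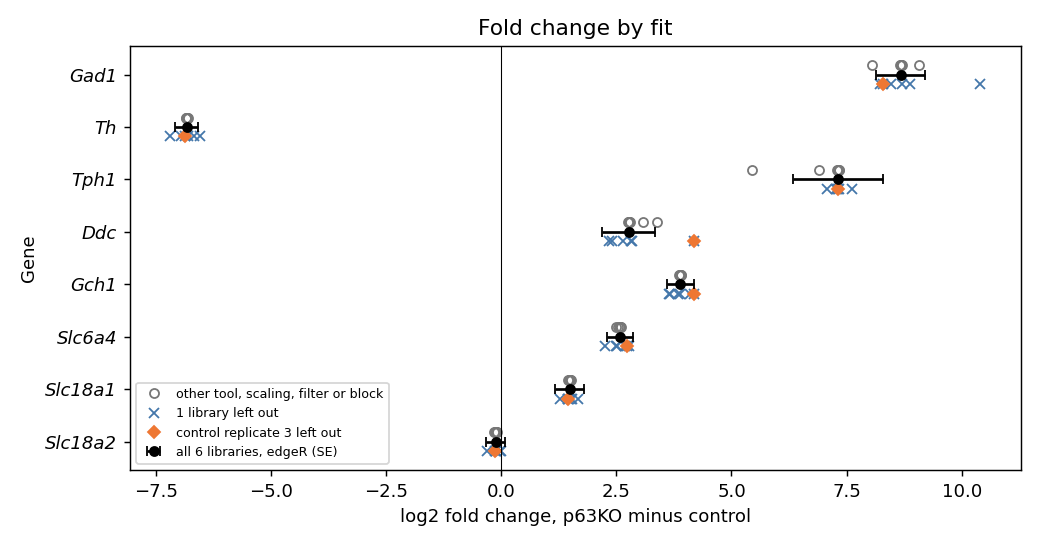
Log2 fold change (p63KO minus control) of the 8 tested genes under each fit; filled circles are the edgeR estimate with its SE, open circles other tools, scalings, filters or the replicate block, crosses 1 library left out and diamonds control replicate 3 left out. Ddc moves from 2.77 to 4.18 without control replicate 3, and Gad1 to 10.4 without control replicate 2, the only control library with a Gad1 count.

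Cell type markers were read beside these genes. Of 10 neuroendocrine markers, 10 were called higher, where 15.3% of all tested genes were. Markers near 0 in control, such as Neurog3 with 3 counts and Neurod1 with 1, could be tested only through p63KO. That favours a call of higher, so nothing is read from the tally. The summed level of the 10 markers was 2.66 to 7.41 CPM in the controls and 418.9 to 535.6 CPM in p63KO. Gad1, Tph1, Ddc, Gch1, Slc6a4 and Slc18a1 were higher in the same p63KO libraries. The part of neuroendocrine cells in each value was not tested. Among mast cell markers, Mcpt4, Tpsb2, Tpsab1 and Fcer1a were at 0 in all libraries, and Cpa3 had 5 counts in control and 1 in p63KO. Kit alone of the 9 was tested and rose (edgeR adjusted p = 0.000463), and it carried nearly all of the summed level, which was 112.3 to 148.7 CPM in the controls and 207.6 to 222.7 CPM in p63KO. Of 9 platelet and megakaryocyte markers 3 could be tested, and Itga2b fell, while Pf4 had 9 counts in control and 4 in p63KO. Their sums overlapped, at 51.9 to 68.5 CPM in the controls and 61.5 to 84.1 CPM in p63KO. Of 10 enteric neuron and neural crest markers, Ret rose and Ednrb fell. The summed level of that list, which Ret leads in p63KO, was 19.7 to 37.3 CPM in the controls and 104.6 to 132.6 CPM in p63KO. For 8 macrophage markers the sums were 12.0 to 15.8 CPM in the controls, and the p63KO sums lay within that range. Of 8 mesenchyme markers, Dcn and Twist1 rose and Col1a1, Col3a1, Pdgfra and Pdgfrb fell. The mesenchyme sum was 574.0 to 693.8 CPM in the controls and 1392 to 1778 CPM in p63KO, where Dcn, a matrix proteoglycan gene, alone held 1053 to 1342 CPM. The part of the mesenchyme in the values of the 9 genes was not tested.

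Other genes of these transmitter pathways were read from 7 lists of 124 genes, of which 123 had a row in the table and 41 could be tested. Of the 41, 13 rose and 6 fell, or 46.3% against 29.6% of all tested genes, with a median log2 fold change of 0.14 against -0.01. Genes near 0 in control could be tested only through p63KO, which favours rises in this count. Genes near 0 in p63KO could be tested only through control, which favours falls, and the lists are small.

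In the 15 genes of GABA and glutamate handling, 3 of 7 tested genes rose and 1 fell. Slc6a11, a GABA transporter gene of glia, had no count in control and 19, 23 and 21 counts in p63KO. Against the same floor, and with the same errors left out, Slc6a11 was 25.8-fold higher. Abat, the transaminase that breaks GABA down, rose from 77.8 ± 0.78 to 127.0 ± 2.35 CPM (0.71 on the log2 scale, SE 0.06, edgeR adjusted p = 1.66e-05). Slc17a7, a vesicular glutamate transporter gene, rose from 6 counts to 63 (3.61, SE 0.60, edgeR adjusted p = 0.00157). Aldh5a1, which takes the next step of GABA breakdown, fell by 0.37 on the log2 scale (SE 0.07, edgeR adjusted p = 0.00301). Slc32a1, the vesicular GABA transporter gene, was at 0 in every library, so Gad1 RNA was counted without it. The blood genes Hba-a1 and Hba-a2 were also at 0 in every library, where Hbb-y had 675 counts in control and 575 in p63KO. A 0 therefore need not mean absent RNA, and this was not tested for Slc32a1. Slc6a13, another GABA transporter gene (39 counts in control, 4 in p63KO), did not pass the filter on low counts. With no filter beyond 1 count it fell (-2.88 on the log2 scale, edgeR adjusted p = 0.00877), as it did in the fits without control replicate 1 or p63KO replicate 1, 2 or 3 (edgeR adjusted p = 0.0115, 0.0353, 0.0176 and 0.0301).

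Of 19 GABA receptor genes, 4 could be tested. Of these, 2 rose and 1 fell. The beta subunit gene Gabrb2 rose from 10 counts to 61 (edgeR adjusted p = 0.00311). The epsilon subunit gene Gabre fell by 0.96 on the log2 scale (SE 0.25, edgeR adjusted p = 0.0161), a call lost without control replicate 1, control replicate 2 or p63KO replicate 1 (0.0532, 0.0542 and 0.056). Gabbr1, the metabotropic receptor gene and the most abundant, was at -0.26 (SE 0.11, edgeR adjusted p = 0.101) and fell without control replicate 3 (adjusted p = 0.02) and with the replicate number as a block (adjusted p = 0.0203).

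Other genes of monoamine metabolism and of its cofactor were also read. Over all tested genes 29.6% were called, and with so few tested in each list nothing is read from the counts below. Of 19 other genes of monoamine synthesis, uptake and breakdown 6 were tested, none rose and 2 fell; at an unadjusted p under 0.05 there were 3, and DESeq2 and limma-voom also called none higher. With the replicate number as a block 1 was called higher, Slc29a4 (0.27 on the log2 scale, edgeR adjusted p = 0.0174). Maoa, the monoamine oxidase A gene, fell by 0.36 on the log2 scale (SE 0.09, edgeR adjusted p = 0.0129), a call lost without p63KO replicate 2 (0.0507). In that fit none of the list fell, and 1 fell without control replicate 1 or 2. None of 7 tested genes of the tetrahydrobiopterin pathway other than Gch1 was called by edgeR or DESeq2, where 2 had an unadjusted p under 0.05 and limma-voom called 1. Pcbd1, a cofactor recycling gene, was 198, 207 and 419 counts in control and 477, 355 and 307 in p63KO (0.73, SE 0.30, edgeR adjusted p = 0.104), and it rose without control replicate 3 (1.25, adjusted p = 0.00012). Of the acetylcholine genes 2 of 5 were tested and none was called by edgeR, DESeq2 or limma-voom, with 1 at an unadjusted p under 0.05; Bche, the most abundant, was at -0.15 (SE 0.32).

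Of 31 monoamine receptor genes, 5 could be tested, 2 rose and 1 fell. Adra2a, the alpha-2A adrenergic receptor gene, had 351, 158 and 243 counts in control and 1702, 1088 and 956 in p63KO, and rose by 2.59 on the log2 scale (SE 0.26, edgeR adjusted p = 7.16e-05). Hrh3, a histamine receptor gene, rose from 6 counts to 150 (4.86, SE 0.53, edgeR adjusted p = 0.00012). Adrb3, the beta-3 adrenergic receptor gene, fell by 1.59 (SE 0.35, edgeR adjusted p = 0.00755).

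Among 26 regulators of monoamine and GABA cells, 6 of 10 tested genes rose and 1 fell. Nkx2-2, a factor of serotonergic and endocrine cells that is also among the neuroendocrine markers, rose from 4 counts to 305 (edgeR adjusted p = 1.86e-05). Lmx1b, needed for serotonergic neurons, rose from 5 counts to 153 (edgeR adjusted p = 7.72e-05), and Foxa2, an endoderm factor and the most abundant, rose by 0.56 on the log2 scale (SE 0.09, edgeR adjusted p = 0.00176). Tfap2a, an AP-2 factor of ectoderm and neural crest, fell from 9.46 ± 0.81 to 0.40 ± 0.33 CPM, a change of -4.48 on the log2 scale (SE 0.40, edgeR adjusted p = 3.77e-05). Counts of Fev, the serotonergic factor, were 6 in control against 2 in p63KO, and those of Lmx1a, a factor of enterochromaffin cells, were 0 and 8, both too few to test.

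**Figure D4:**
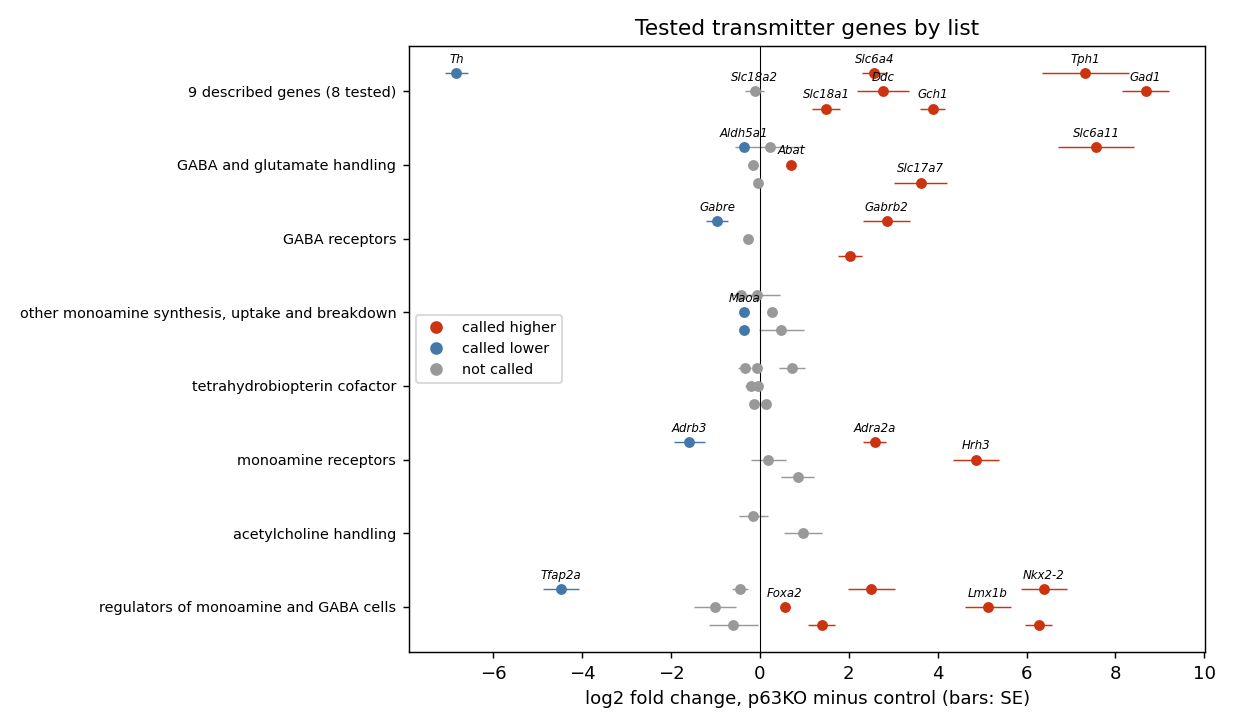
Log2 fold change (p63KO minus control, bars SE) of the tested genes in each list, coloured by call; names mark the described genes and called genes named in the text. Th at -6.83 lies apart from the other tested synthesis genes, which range from 2.77 to 8.68, while no tested gene of the tetrahydrobiopterin list is called.

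The genes most like Th, Gad1, Ddc and Gch1 were found by the root mean square difference in centred log2 CPM over the 6 libraries, among 12284 tested genes. This is a description, since libraries of 1 group share their label, control or p63KO. Nearest to Th were Ugt1a6a, a glucuronosyltransferase gene (0.51), Zfp750, an epidermal zinc finger factor (0.63), Hpgds, a prostaglandin D synthase (0.66), Slc7a10, an amino acid transporter (0.67), and Art4 (0.70). Zfp750 was at 35.4 ± 7.68 CPM in the controls against 0.58 ± 0.05 CPM in p63KO (SD, n = 3 per group). Nearest to Gad1 were St18 (0.28), the endocrine factor Neurod1 (0.32), the Notch ligand Dll3 (0.32), Cnpy1 (0.36) and the neuronal RNA-binding gene Elavl3 (0.38). Nearest to Gch1 were Vat1l (0.14), Sez6l2 (0.18), the potassium channel gene Kcnc1 (0.19), the LIM homeodomain factor Isl1 (0.19) and Cryba2 (0.21).

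The 5 genes nearest to Ddc, whose likeness was measured over all 6 libraries and so includes the high value in control replicate 3, were Cpn1 (0.33), the secretory factor Spdef (0.38), Kif12 (0.43), the endoderm factor Foxa3 (0.45) and the Notch-related gene Dlk1 (0.45). Cpn1, a carboxypeptidase subunit gene, was 3.60, 4.19 and 15.9 CPM in control and 50.4, 48.3 and 37.1 CPM in p63KO. Foxa3 was 0, 0.15 and 1.77 CPM in control and 4.54, 5.89 and 4.53 CPM in p63KO.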

How the data were processed

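RNA was measured by sequencing in 3 control and 3 p63KO samples. Libraries were TruSeq RNA from PicoPure-purified RNA, per the labels' protocols. The values deposited by the authors are raw counts by gene symbol without any scaling. The submitters' processing notes name TopHat2 2.1.0, bcl2fastq 1.8.4, build mm9 and DESeq2. The counter, annotation and strand setting were not given in the sources used here. Overlapping genes may therefore share reads, and a gene without a count in any library need not lack RNA. Libraries of the same group differed beyond counting noise (chi-square per degree of freedom 7.53 to 15.3).

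The fit used edgeR 4.0.16 in R 4.3.3 (filterByExpr with a minimum count of 10 and a minimum total of 15, TMM scaling, quasi-likelihood test of group without covariates, Benjamini-Hochberg adjustment over 13849 genes, threshold 0.05). The SE is the log2 fold change divided by the square root of F. The pipeline was tested on simulated data. Alternatives were RLE and upper-quartile scaling, DESeq2 1.42.0, limma-voom (limma 3.58.1), other filters, robust dispersions, a replicate block, each library left out and a 2-fold threshold.

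The 9 genes, the lists and the markers were chosen with earlier results of these data known. Named list genes were the 3 called genes with the lowest p in each direction and the most abundant member; other list genes, such as Slc32a1, Slc29a4, Slc6a13, Pcbd1, Fev, Lmx1a, Dbh and Pnmt, were chosen after their values were seen. Some single-gene values are not reported here, while counts and sums over lists include them. Neighbours were the nearest RefSeq genes with a row in the table, and likeness used a prior count of 2 and genes of at least 1 CPM in a group, without clone and model names. Of the 124 list symbols, 121 matched as written and 2 through a synonym. Exonic lengths came from GENCODE models on GRCm38, not the authors' build, and were used only as lengths. Promoter windows were matched by symbol for Gad1, Gad2, Th, Tph1, Ddc, Gch1, Slc6a4 and Slc18a2, and Slc18a1 was not matched.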

Additional observations from a re-analysis of the deposited data

How the results depend on the processing

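Of 201 values of the fold changes of the 8 tested genes and of the total counts of calls under the alternatives, 196 kept their direction and their side of the threshold, or stayed within 1.5 times the count. Of 210 counts of calls in the 7 single lists, which are counts of 7 or fewer, 189 did so and 21 did not. Ddc kept its log2 fold change of 2.77 with robust dispersions but was then not called; the cause was not tested. The list genes called lower numbered 6, against 10 with no filter, where more genes are tested, and 2 with a 2-fold threshold. Over all genes, that threshold left 928 higher and 684 lower of 2113 and 1985. With each library left out, 13 to 14 list genes were called higher and 4 to 8 lower, and the described genes called were the same 6 higher and 1 lower. Tph1 was not tested with the filter of 1 CPM in 3 libraries, and its log2 fold change was 5.44 with limma-voom, since a fitted fold change of a gene at 0 in control depends on the method. Deviations of same-numbered control and p63KO libraries were correlated at 0.17, 0.26 and 0.03. Those of differently numbered libraries lay between -0.23 and 0.06. The labels give no pairing, so the numbers were not taken as pairs, and whether they are pairs was not tested. With the replicate block, 2397 genes were called higher and 2381 lower, and the called described genes were again 6 higher and Th lower. Gad2, Tph1 and Gad1 in control were at the limit of the depth, where a count of 3 was worth at most 0.223 CPM.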
